A study of Mus musculus with 12 samples.

Results

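Translesion synthesis, the copying of damaged DNA by specialised polymerases, was followed in mouse forestomach through 7 genes: Rev1, Rev3l, Polh, Poli, Polk, Mad2l2 and Rad18. The genes were chosen by name, from a proposal made with results of these comparisons known, so their values and adjusted p-values below are a description and no count among them is read as support. Of 21271 genes named on the array, these 7 had 13 of 41174 probes, and 12 of the 13 probes passed the filter on dim probes. Poli and Mad2l2 had 1 probe each, Rev1, Rev3l, Polk and Rad18 had 2 each, and Polh had 3. Each probe was read by itself.

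The 12 samples were total RNA from whole forestomach, the squamous-lined part of the rodent stomach, of adult wild-type C57BL/6J mice. One group of 4 received 15% alcohol for 40 weeks, with no mention of saccharin in the labels; another group of 4 received 20% alcohol for 4 weeks in a supersaccharin solution; and a control group of 4 received supersaccharin with 0% alcohol for a time that the labels leave out. The 40-week group had no controls of its own, so duration of drinking, dose, the saccharin vehicle and age cannot be told apart. Forestomach RNA was labelled with Cy5 on every array and set against a commercial pool in Cy3 (Universal Mouse Reference RNA from Agilent). A value here is the deposited log2 ratio of Cy5 over Cy3 unless a channel is named. These ratios are after normalisation, so a log2 ratio of 0 does not mean equal raw signal from forestomach and pool. The Polh 5′ probe described below read 0.36 on 4-week replicate 1, with background-subtracted Cy5 of 91.1 and Cy3 of 196. In whole tissue, fewer cells of a type and less RNA per cell cannot be told apart.

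When a replication fork meets a damaged base, the ubiquitin ligase RAD18 and its partner RAD6 attach ubiquitin to PCNA, the sliding clamp, and the modified clamp recruits polymerases with open active sites. The Y-family enzymes REV1 and polymerases eta, iota and kappa insert a nucleotide opposite the lesion, and polymerase zeta, built on REV3L and its accessory subunit REV7 (the product of Mad2l2), extends from it. Alcohol is oxidised to acetaldehyde, which reacts with guanine in DNA, and bypass of such adducts is one known task of this pathway.

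The sequences of 5 probes are shown first, each as the 60 bases of the array design, 5′ to 3′, with its position on build mm9 (NCBI37) and the strand as the files give them. The 2 Rev1 probes carry the widest difference at 40 weeks and the Polh 5′ probe a fall. The more 5′ probes of Rev3l and Rad18 are shown to place those genes, and neither passed in any comparison on the deposited scale. The other probes, which include the Rev3l 3′ probe and the middle Polh probe, are described by position. The labels 5′, middle and 3′ only order the probes within a gene, and the Polh 5′ probe starts 265 bases before the middle one.
Rev1 5′ probe A_52_P323215, chr1:38136136-38136195, minus strand: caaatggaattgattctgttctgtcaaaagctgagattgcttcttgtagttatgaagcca
Rev1 3′ probe A_51_P249594, chr1:38110029-38110505, minus strand: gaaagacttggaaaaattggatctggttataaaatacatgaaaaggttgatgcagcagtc
Rev3l 5′ probe A_52_P31709, chr10:39502961-39503020, plus strand: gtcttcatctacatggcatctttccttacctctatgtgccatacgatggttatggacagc
Polh 5′ probe A_52_P461256, chr17:46309334-46309393, minus strand: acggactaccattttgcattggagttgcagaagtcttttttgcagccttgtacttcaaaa
Rad18 5′ probe A_51_P480855, chr6:112594728-112599634, minus strand: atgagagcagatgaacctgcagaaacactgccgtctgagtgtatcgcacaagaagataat
The Rev1 3′ probe covers 477 bases of genome with its 60 bases, and the Rad18 5′ probe covers 4907, so each lies across at least 1 intron. The other 3 lie in unbroken stretches of 60 bases. By the files' transcript positions the Rev1 probes start at bases 1691 and 3804 and lie 2113 bases apart, the Rev3l probes start at 466 and 10285, and the Polh probes start at 2128, 2393 and 3099. Exon and untranslated-region boundaries were not assigned, since no transcript annotation of this build was used here.

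Facts of the whole series that touch these genes are as follows. Squamous epithelium markers averaged a log2 ratio of 3.1 to 3.53 on the 40-week arrays, 3.93 to 4.89 on the 4-week arrays and 5.6 to 6.16 on the control arrays, so the tissue label held on every array. At 40 weeks against control 11 of 11 of these markers fell as deposited. After every array was scaled to 1 spread, 7 of them fell and 2 rose. Control replicate 3 stood apart in pancreatic markers, with a mean of 6.31, control replicate 4 in glandular stomach markers, with 5.55, and 4-week replicate 2 in both, with 2.25 and 3.69. These are called the 3 mixed arrays below, and results that rest on them are given without them too. The division was not sharp: control replicate 3 also had 3.45 in glandular stomach markers, and control replicates 1 and 4 had 1.67 and 1.89 in pancreatic markers. Adipocyte markers were low on 4-week replicate 3, at 1.81 beside 4.67 to 4.78 on the other 4-week arrays, and on control replicate 1, at 3.37 beside 5.66 to 6.22 on the other controls. Smooth muscle markers averaged 2.59 to 2.89 at 40 weeks, 3.05 to 3.99 at 4 weeks and 4.48 to 4.84 in controls; 7 of 7 fell at 40 weeks against control as deposited, and 3 fell and 1 rose after scaling. The part of tissue makeup in the differences below was not tested. The mean of 5 sex-chromosome genes was -3.05 and -3.46 on 40-week replicates 3 and 4 and 0.41 to 1.15 on the other 10 arrays. These genes did not move alike. At 40 weeks against control Xist differed by 1.56, and the Y-linked Eif2s3y, Ddx3y, Uty and Kdm5d by -4.47, -2.48, -1.75 and -1.72. The labels give no sex, and its part in the differences below was not tested. The spread of log2 ratios over all probes was narrower at 40 weeks, with standard deviations of 1.02 to 1.08, against 1.48 to 1.58 at 4 weeks and 1.52 to 1.73 in controls. Differences at 40 weeks are therefore also given after each array was scaled to 1 common spread. All 4 control arrays were on 1 slide and all 4 4-week arrays on another, so slide and group cannot be told apart, and the scanner files of the 40-week arrays were not analysed here.

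**Figure D1:**
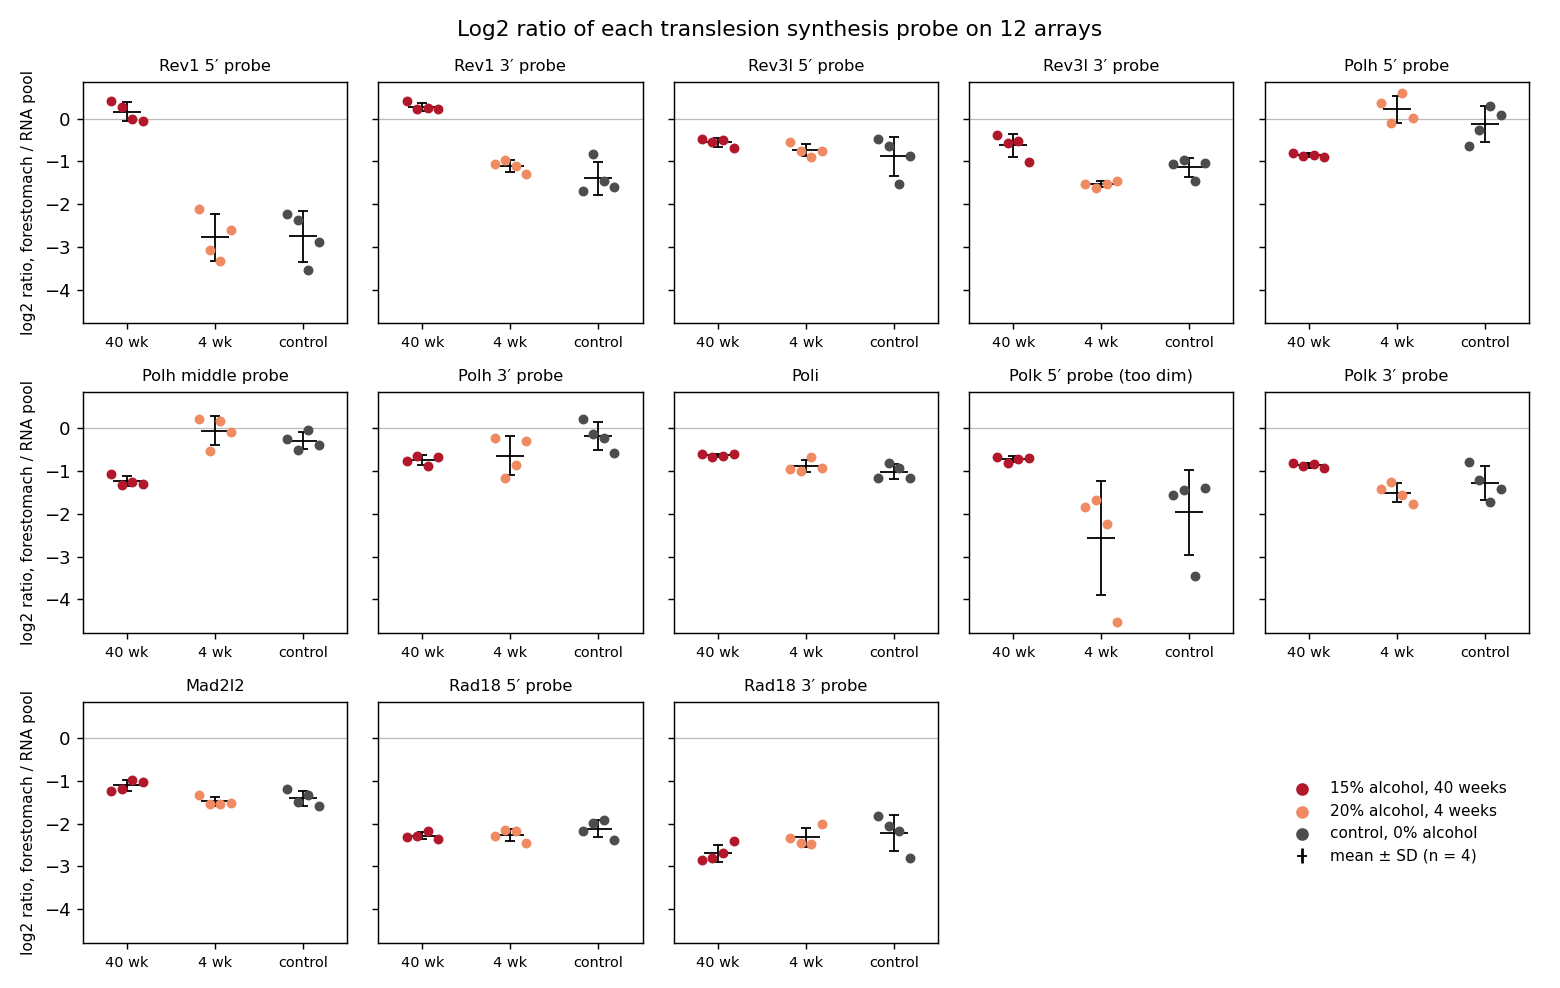
Deposited log2 ratio of forestomach RNA over the common pool (y axis) for each of the 13 probes on the 12 arrays, by group (x axis). Points are arrays, bars are the mean ± SD of 4; in both Rev1 panels the 40-week arrays lie above all others, at -0.06 to 0.41 for the 5′ probe and 0.22 to 0.42 for the 3′ probe.

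Rev1 was higher after 40 weeks of alcohol on both of its probes, and this was the widest difference among the 7 genes. REV1 inserts deoxycytidine opposite damaged guanine and its C-terminal part serves as the scaffold on which the other translesion polymerases exchange. The 5′ probe read 0.41, 0.27, 0.00 and -0.06 on the 40-week arrays, -2.11, -3.07, -3.34 and -2.60 on the 4-week arrays, and -2.23, -2.38, -3.54 and -2.88 on the control arrays. All 4 40-week arrays lay over 2 log2 units above the highest of the other 8, and the 4-week and control arrays overlapped over most of their range. The difference at 40 weeks from control was 2.91 ± 0.31 (SE, n = 4 each), a 7.54-fold higher ratio, with a limma adjusted p of 2.34e-05. At 4 weeks the difference from control was -0.02 ± 0.31, with an adjusted p of 0.976 and an interval of -0.69 to 0.65.

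The 3′ probe of Rev1 likewise put the 40-week arrays highest, with a smaller difference. It read 0.42, 0.23, 0.25 and 0.22 on the 40-week arrays, -1.06, -0.97, -1.12 and -1.30 on the 4-week arrays, and -1.70, -0.84, -1.46 and -1.61 on the control arrays. The 40-week arrays did not overlap either other group, while control replicate 2 lay above every 4-week array. The 40-week mean of 0.28 ± 0.09 stood against -1.40 ± 0.39 in controls (SD, n = 4 each), a difference of 1.68 ± 0.18 (SE; 3.21-fold; limma adjusted p = 2.11e-05). Against the 4-week arrays the difference was 1.39 ± 0.18 (adjusted p = 0.000135), and for the 5′ probe it was 2.93 ± 0.31 (adjusted p = 5.06e-05). Scaling the arrays to 1 spread left differences from control of 2.60 for the 5′ probe and 1.59 for the 3′ probe, with adjusted p-values of 3.44e-05 and 6.36e-05. Without 40-week replicates 3 and 4 the differences from control were 3.1 and 1.73, and without the 3 mixed arrays they were 2.46 and 1.55; both probes passed under each of these settings.

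Where Rev1 stood among all kept probes depended on the probe. The 5′ probe had the 37th largest rise of 30455 probes at 40 weeks, and the 3′ probe the 948th, so 0.118% and 3.11% of probes rose more. Probes low in controls differed upward in general on the narrower 40-week scale: the 1102 probes with a control mean between -3 and -2 had a median difference of 0.87 and a 95th percentile of 2.52, and the 5′ probe, with a control mean of -2.76, lay above that percentile. The 3589 probes with a control mean between -2 and -1 had a median of 0.63 and a 95th percentile of 2.06, and the 3′ probe lay between these. After scaling, these medians were 0.13 and 0.22. In the control and 4-week arrays the pool was the brighter channel for Rev1: background-subtracted Cy5 of the 5′ probe was 67.2 to 200 at 4 weeks and 129 to 284 in controls, while Cy3 was 2070 to 2710 at 4 weeks and 2710 to 2980 in controls. The pool was also brighter over all spots of these arrays, with medians of 42.4 to 151 in Cy5 and 191 to 269 in Cy3. The channel signals behind the 40-week ratios were not analysed here, so whether Cy5 or Cy3 carried the difference was not tested.

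**Figure D2:**
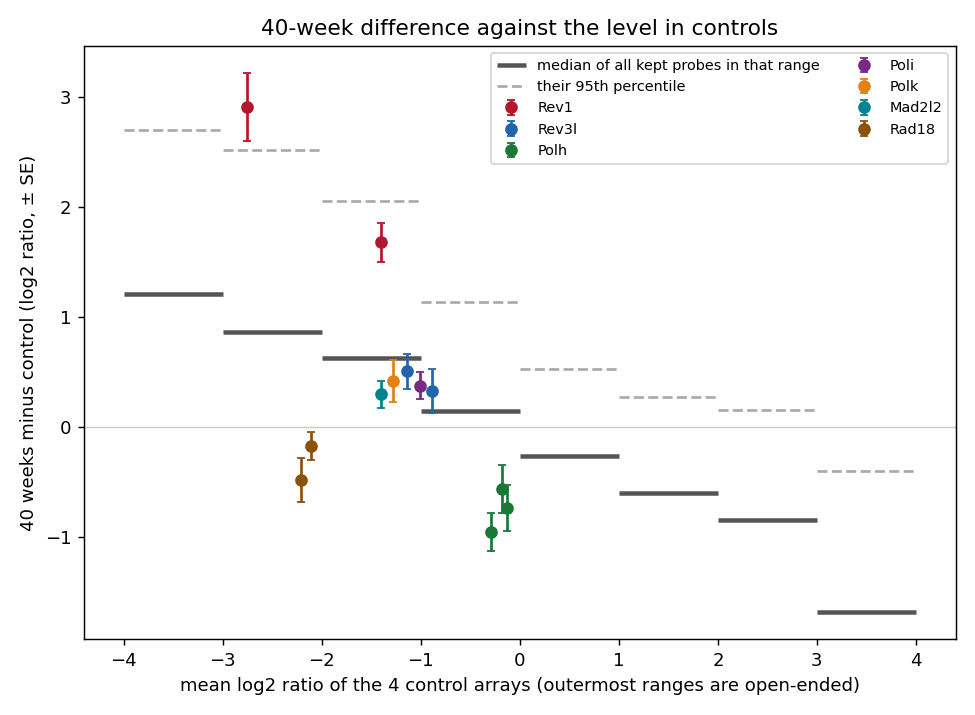
Difference between 40 weeks of alcohol and control (y axis, log2 ratio, ± SE) against the mean log2 ratio of the 4 control arrays (x axis) for the 12 kept probes, with the median and 95th percentile of all kept probes in each range of control level. The median falls from 1.21 in the lowest range to -1.68 in the highest; the Rev1 5′ probe, at 2.91, is above the 95th percentile of its range, and both Rad18 probes are below the median of theirs.

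Rev3l, the catalytic subunit of polymerase zeta and the enzyme that extends past a lesion, differed between the 2 alcohol groups on its 3′ probe, the brighter one. That probe (A_51_P271665, chr10:39594632-39594691, plus strand) read -0.38, -0.58, -0.53 and -1.01 on the 40-week arrays, -1.52, -1.63, -1.52 and -1.47 on the 4-week arrays, and -1.07, -0.98, -1.47 and -1.03 on the control arrays. All 4-week arrays lay below the other 8, by less than the second decimal at the nearest point, and 40-week replicate 4 was within the control range. The 40-week arrays were higher than the 4-week arrays by 0.91 ± 0.16 (SE, n = 4 each; limma adjusted p = 0.000855), and by 0.61 after scaling (adjusted p = 0.00885). The difference from control of 0.51 ± 0.16 at 40 weeks passed as deposited (adjusted p = 0.0199) and did not after scaling, where it was 0.19 (adjusted p = 0.377), nor without the 3 mixed arrays, where it was 0.40 (adjusted p = 0.104). It was also lost without control replicate 3, 40-week replicate 1 or 40-week replicate 3, at 0.40, 0.43 and 0.48 (adjusted p = 0.0564, 0.0643 and 0.0561). At 4 weeks the difference from control was -0.40 ± 0.16 with an adjusted p of 0.151. The groups did not overlap for this probe, which made it 1 of 12 members to be so separated at 4 weeks, against 11.6% of all kept probes.

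The Rev3l 5′ probe, whose sequence is given above, passed in none of the 3 comparisons. It lay at -0.70 to -0.49 on the 40-week arrays, -0.89 to -0.54 on the 4-week arrays and -1.54 to -0.49 on the control arrays, where replicate 3 was the low one. The difference from control was 0.33 ± 0.20 at 40 weeks (adjusted p = 0.199) and 0.15 ± 0.20 at 4 weeks (adjusted p = 0.673), and between the alcohol groups it was 0.18 ± 0.20 (adjusted p = 0.495). After scaling, the 40-week differences were 0.04 from control and -0.04 from 4 weeks. The probe gave a weak signal, with Cy5 of 15.8 to 40.7 at 4 weeks and 31.9 to 58.3 in controls, while the 3′ probe gave 429 to 1210 at 4 weeks and 1540 to 2720 in controls. Their within-group correlation over the 12 arrays was 0.68, given as a description because both are read from the same arrays.

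Mad2l2, which encodes REV7, the subunit that joins REV3L to REV1 and also serves in the shieldin complex of end joining, moved little. Its 1 probe (A_51_P179987, chr4:147519744-147519803, plus strand) read -1.23 to -0.97 on the 40-week arrays, -1.55 to -1.32 on the 4-week arrays and -1.59 to -1.19 on the control arrays. The 40-week arrays lay above all 4-week arrays and overlapped the controls. The difference from the 4-week arrays was 0.38 ± 0.12 (SE, n = 4 each; limma adjusted p = 0.0264) as deposited and -0.05 after scaling (adjusted p = 0.777), so its direction turned with the scale. As deposited it was also lost without 4-week replicates 2, 3 or 4 or 40-week replicates 3 or 4, each left out alone, at 0.34 to 0.37 (adjusted p of 0.0508 to 0.0793), and without both of the last at 0.28 (adjusted p = 0.234). Against controls it was 0.30 ± 0.12 at 40 weeks (adjusted p = 0.0675; -0.19 with an adjusted p of 0.255 after scaling; 0.38 with 0.0291 without control replicate 1, the control low in adipocyte markers) and -0.08 ± 0.12 at 4 weeks (adjusted p = 0.737).

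Polh went the other way from Rev1. It encodes polymerase eta, which copies past ultraviolet-induced thymine dimers and is the gene lost in the variant form of xeroderma pigmentosum. The 5′ probe read -0.80, -0.88, -0.85 and -0.91 on the 40-week arrays, 0.36, -0.11, 0.59 and 0.01 on the 4-week arrays, and -0.64, -0.28, 0.30 and 0.09 on the control arrays. The 40-week arrays were close together and below every other array, and the 4-week and control arrays overlapped. The 40-week arrays were lower than controls, with a difference of -0.73 ± 0.21 (SE, n = 4 each; limma adjusted p = 0.0145), and lower than the 4-week arrays, with a difference of -1.07 ± 0.21 (adjusted p = 0.00169). After scaling, the differences were -0.98 from control and -1.30 from 4 weeks, and both passed. The control arrays with pancreatic and glandular stomach transcripts were the 2 highest controls: without them and 4-week replicate 2 the difference from control was -0.40 at 40 weeks (adjusted p = 0.111) and 0.78 at 4 weeks (adjusted p = 0.0287), against 0.35 ± 0.21 at 4 weeks with all arrays (adjusted p = 0.335). Without 40-week replicates 3 and 4 the difference from control was -0.71 (adjusted p = 0.0949).

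The middle Polh probe (A_51_P370755, chr17:46309069-46309128, minus strand) lay 265 bases downstream and gave the larger fall. It read -1.07, -1.33, -1.25 and -1.31 on the 40-week arrays, 0.22, -0.53, 0.18 and -0.08 on the 4-week arrays, and -0.24, -0.50, -0.04 and -0.39 on the control arrays. Again the 40-week arrays lay below all others. The difference was -0.95 ± 0.17 from control (1.93-fold lower; limma adjusted p = 0.00121) and -1.19 ± 0.17 from 4 weeks (adjusted p = 0.000337), and -1.34 and -1.55 after scaling. It also passed against control without the 3 mixed arrays, at -0.87 (adjusted p = 0.00247). At 4 weeks it differed from control by 0.24 ± 0.17 (adjusted p = 0.429).

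The 3′ Polh probe (A_52_P411716, chr17:46308334-46308392, minus strand), annotated by the files to an Ensembl transcript rather than the RefSeq one, gave the strongest signal of the 3 and set the groups in another order. It read -0.77, -0.64, -0.89 and -0.66 on the 40-week arrays, -0.23, -1.17, -0.85 and -0.29 on the 4-week arrays, and 0.22, -0.14, -0.22 and -0.57 on the control arrays. The 4-week arrays spanned the whole 40-week range. The difference from control was -0.56 ± 0.22 at 40 weeks (limma adjusted p = 0.059; -0.80 with an adjusted p of 0.00991 after scaling) and -0.45 ± 0.22 at 4 weeks (adjusted p = 0.239). At 40 weeks it passed without control replicate 4 (-0.69, adjusted p = 0.0316) or 4-week replicate 2 (-0.56, adjusted p = 0.0327), and without the 3 mixed arrays together (-0.78, adjusted p = 0.0144). The 4-week array is in neither group compared there, so leaving it out changed the shared estimate of spread and not the difference. Against 4 weeks it was -0.11 ± 0.22 (adjusted p = 0.722), where the other 2 probes gave -1.07 and -1.19. Within groups its correlation over the 12 arrays was -0.27 with the 5′ probe and 0.46 with the middle probe, while those 2 correlated at 0.61, so the 3 probes did not order the arrays alike.

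**Figure D3:**
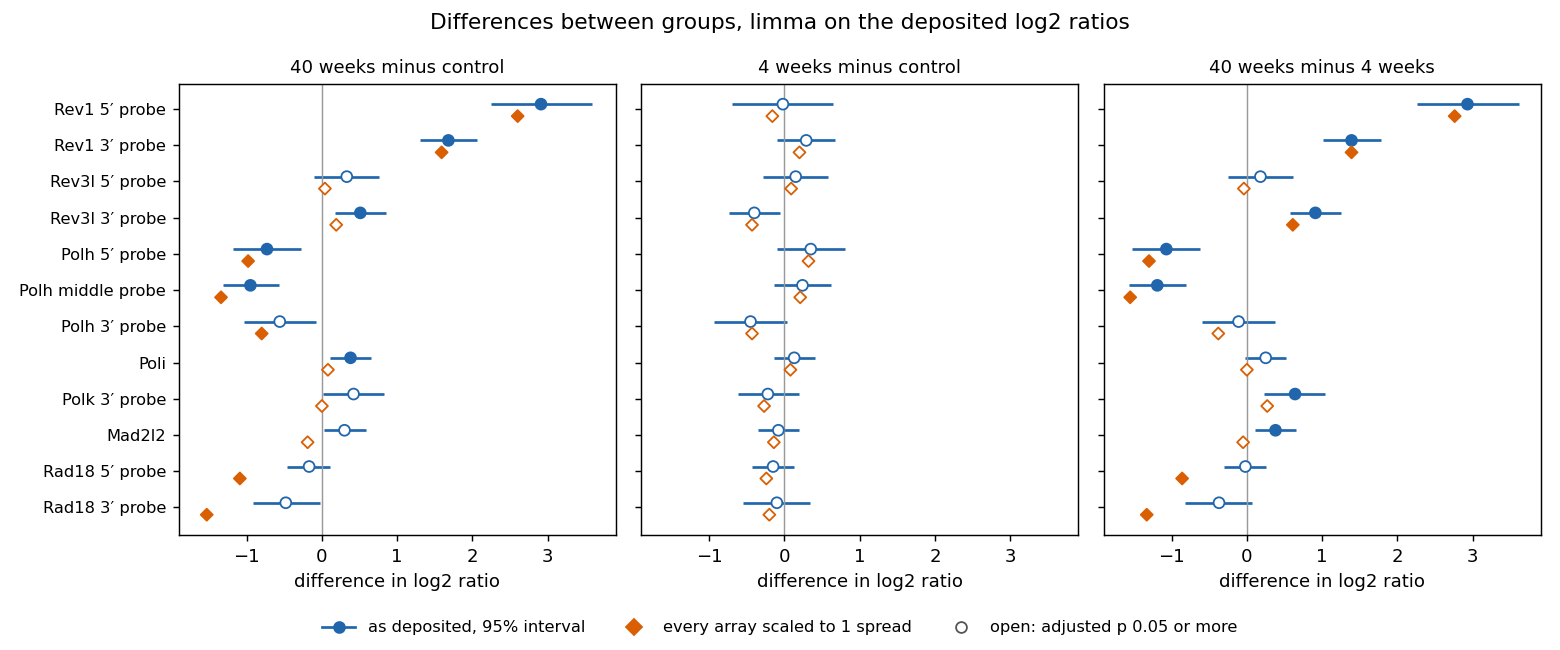
Differences in log2 ratio (x axis) for the 12 kept probes in the 3 comparisons. Circles with 95% intervals are the deposited values, diamonds the same after every array was scaled to 1 spread, and filled symbols have an adjusted p under 0.05. Rev1 at 40 weeks is far to the right under both scalings, Polh to the left, and both Rad18 probes pass after scaling alone, at -1.09 and -1.53 from control.

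Poli and Polk, the remaining Y-family polymerases, differed less: Poli was higher at 40 weeks than in controls and Polk higher than at 4 weeks, in both cases on the deposited scale alone. Polymerase iota is known for misinsertion opposite thymine, and polymerase kappa for bypass of bulky adducts on the amino group of guanine. The Poli probe (A_51_P379680, chr18:70668456-70668515, minus strand) read -0.60, -0.68, -0.64 and -0.60 on the 40-week arrays, -0.95, -0.99, -0.66 and -0.92 on the 4-week arrays, and -1.15, -0.80, -0.92 and -1.17 on the control arrays. The 40-week arrays lay above every control and overlapped the 4-week arrays. The difference from control was 0.38 ± 0.12 (SE, n = 4 each; limma adjusted p = 0.0273) as deposited, 0.08 after scaling (adjusted p = 0.659) and 0.35 without the 3 mixed arrays (adjusted p = 0.103). It was lost as well without any 1 of control replicates 1 and 4 and 40-week replicates 1, 3 and 4, at 0.33 to 0.39 (adjusted p of 0.0565 to 0.0702), and without 40-week replicates 3 and 4 together, at 0.37 (adjusted p = 0.141). At 4 weeks it was 0.13 ± 0.12 (adjusted p = 0.545), and between the alcohol groups 0.25 ± 0.12 (adjusted p = 0.127; 0.00 after scaling).

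The brighter Polk probe (A_51_P363588, chr13:97251252-97251311, minus strand) read -0.81, -0.89, -0.84 and -0.93 on the 40-week arrays, -1.42, -1.25, -1.57 and -1.77 on the 4-week arrays, and -0.78, -1.20, -1.73 and -1.42 on the control arrays. The 40-week arrays lay above all 4-week arrays, and control replicate 1 was the highest array of all. The 40-week arrays were higher than the 4-week arrays by 0.64 ± 0.19 (limma adjusted p = 0.016) as deposited and by 0.27 after scaling, where the test was not passed (adjusted p = 0.181); without 40-week replicates 3 and 4 it was 0.66 (adjusted p = 0.0862). The difference from control was 0.42 ± 0.19 at 40 weeks (adjusted p = 0.0883; 0.00 after scaling; 0.59 with an adjusted p of 0.0113 without control replicate 1, the control low in adipocyte markers) and -0.22 ± 0.19 at 4 weeks (adjusted p = 0.507). Without the 3 mixed arrays the 4-week difference was -0.59 (adjusted p = 0.0466). The second Polk probe (A_52_P460095, chr13:97266792-97271527, minus strand, across at least 1 intron) was well above background in Cy5 on 1 of 4 arrays at 4 weeks and 1 of 4 in controls, and was left out by the filter. It read -0.80 to -0.66 at 40 weeks, -4.53 to -1.67 at 4 weeks and -3.46 to -1.39 in controls, with Cy5 of 1.45 to 21.6 at 4 weeks and 6.40 to 27.5 in controls, so these ratios rest on signals near background.

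Rad18, the ligase at the start of the pathway, did not pass in any comparison on the deposited scale. Its 5′ probe lay at -2.36 to -2.16 on the 40-week arrays, -2.44 to -2.14 on the 4-week arrays and -2.38 to -1.92 on the control arrays. Its 3′ probe (A_52_P413805, chr6:112576416-112576475, minus strand), annotated to a cDNA clone, lay at -2.86 to -2.41 at 40 weeks, -2.48 to -2.0 at 4 weeks and -2.81 to -1.81 in controls. All 3 groups overlapped on both probes. The difference from control at 40 weeks was -0.17 ± 0.13 for the 5′ probe (limma adjusted p = 0.297) and -0.48 ± 0.20 for the 3′ probe (adjusted p = 0.0805). After scaling these were -1.09 and -1.53, with adjusted p-values of 0.000186 and 0.000212, so for Rad18 the choice of scale decided the call. The 3′ probe also passed without the 3 mixed arrays, at -0.75 (adjusted p = 0.0125), and without control replicate 4 alone, at -0.67 (adjusted p = 0.00903). Between the alcohol groups the differences were -0.02 ± 0.13 and -0.37 ± 0.20 as deposited and -0.86 and -1.33 after scaling. At 4 weeks against control they were -0.15 ± 0.13 and -0.10 ± 0.20. Probes with control means between -3 and -2 had a median difference of 0.87 as deposited, and both Rad18 probes lay below it.

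Counted over the 12 kept probes, 6 passed at 40 weeks against control, 4 higher (both Rev1, Rev3l 3′ and Poli) and 2 lower (Polh 5′ and middle). Over all kept probes 42.2% passed, 18.1% higher and 24.2% lower. After scaling, 7 of 12 passed, against 38.1% of all. Both Rev1 probes were then higher, and Polh 5′, middle and 3′ and both Rad18 probes lower. Values at 40 weeks lay wholly apart from control values for 6 of 12 members and for 41.7% of all probes. Between the 2 alcohol groups 7 of 12 passed, 5 higher at 40 weeks and 2 lower, against 43% of all probes, 18.3% higher and 24.7% lower. With scaling 7 of 12 passed, against 41.4%, but not the same 7. Both Rev1 probes and Rev3l 3′ were then higher, and Polh 5′ and middle and both Rad18 probes lower. As deposited, the 2 groups did not overlap for 7 of 12, against 46.8%. The comparisons share samples and the genes were chosen with these results known, so nothing is read from these shares.

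At 4 weeks 0 of 12 probes passed against control, where limma called 5.3% of all kept probes; at an unadjusted p under 0.05 the Rev3l 3′ probe alone had an interval that left out 0, from -0.74 to -0.06. For these 8 arrays the scanner signals were also fitted directly. With normexp background correction and loess, 0 of 12 passed and 0.755% of all probes did, and the differences lay between -0.46 for the 3′ Polh probe and 0.23 for the 5′ Polh probe. With Cy5 alone, 0 of 12 passed and 0.233% of all did. The lowest adjusted p was that of the Rev3l 3′ probe, at -0.59 ± 0.13 (SE, n = 4 each; adjusted p = 0.0925), and Poli stood at 0.40 ± 0.15 (adjusted p = 0.239).

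The Cy3 channel held the same RNA pool on every array, so a difference there is not one of the forestomach. Cy3 alone passed for 1 of 12 members and 7.27% of all probes. The member was the 3′ Rad18 probe, with Cy3 of 837, 1060, 658 and 570 on the 4-week arrays and 627, 449, 391 and 589 on the control arrays before normalisation, and a normalised difference of 0.79 ± 0.14 (limma adjusted p = 0.0147). Its Cy5 differed by 0.34 ± 0.12 (adjusted p = 0.217) and its ratio by -0.24 ± 0.18 (adjusted p = 0.53). For Poli, Cy5 was 0.40 higher and Cy3 0.22 higher at 4 weeks, and for the Rev1 3′ probe the values were 0.50 and 0.24; none of these passed, and the ratios differed by 0.11 and 0.21.

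**Figure D4:**
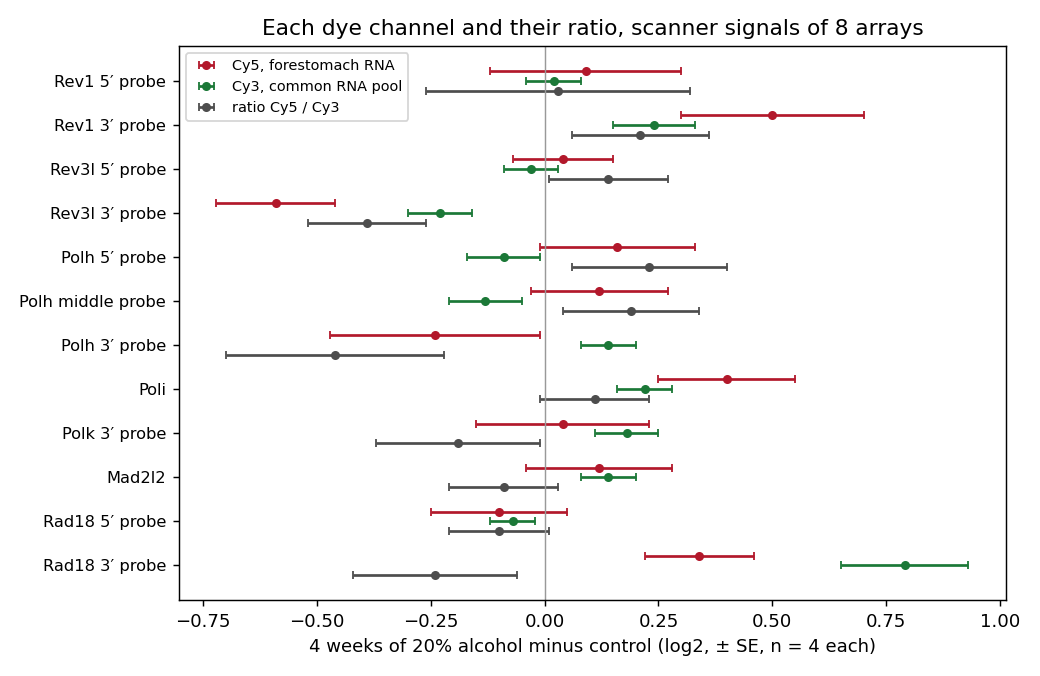
Difference between 4 weeks of 20% alcohol and control (x axis, log2, ± SE, 4 arrays each) for each kept probe, in Cy5 (forestomach RNA), Cy3 (common pool) and their ratio. The widest Cy3 difference is that of the 3′ Rad18 probe, at 0.79, and the widest Cy5 difference that of the 3′ Rev3l probe, at -0.59.

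Genes around the translesion polymerases were examined in 4 lists of 55 genes with a kept probe: enzymes, clamp and clamp loader acting on PCNA (21 genes), replicative polymerase subunits (12), other specialised polymerases (8), and fork protection and checkpoint genes (14). At 40 weeks 18 of 55 rose and 7 fell against control, with a median difference of 0.23, beside 17.0% and 24.5% of 17418 named genes with a median of -0.11. After scaling 5 rose and 15 fell, with a median of -0.17, so the lists' direction turned with the scale. Among all 17418 named genes 2946 rose and 3287 fell after scaling, with a median of -0.06. By list, 5 rose and 3 fell of the PCNA genes, 4 and 2 of the replicative subunits, 4 and 2 of the other specialised polymerases, and 5 and 0 of the fork genes. Cell cycle markers moved with them: their mean ratio was -2.09 to -1.65 at 40 weeks, -2.54 to -2.20 at 4 weeks and -2.60 to -2.05 in controls, 6 of 15 rose, and after scaling 0 rose and 6 fell. The part of dividing cells in these values was not tested.

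Of the listed genes, those with the lowest adjusted p at 40 weeks against control were mostly higher on the deposited scale. Atad5, which unloads PCNA and brings in its deubiquitinase, differed by 1.12 ± 0.15 (SE, n = 4 each; limma adjusted p = 0.000124) and by 0.45 after scaling (adjusted p = 0.0379). Polq, the polymerase of microhomology-mediated end joining, differed by 1.84 ± 0.33 (adjusted p = 0.00103) and by 0.85 after scaling (adjusted p = 0.0467). Polg, the mitochondrial DNA polymerase, was higher by 0.51 ± 0.11 (adjusted p = 0.00357) and by 0.43 after scaling (adjusted p = 0.00877), and Pole4, a histone-fold subunit of polymerase epsilon, was lower, with -0.57 ± 0.13 (adjusted p = 0.00433) and -0.81 after scaling. These 4 passed on both scales. Sprtn and Vcp also did, at 1.2 ± 0.3 and 0.72 ± 0.2 (limma adjusted p = 0.00764 and 0.013), and at 1.41 and 0.82 after scaling. Ube2v2 (-0.97, and -0.99 after scaling), Wdr48 (-0.44 and -0.52), Rfc4 (-0.39 and -1.16) and Dntt (-0.81 and -1.83) were lower and passed on both. Parp1, a sensor of DNA breaks, at 0.81 ± 0.13, Pola2 at 0.80 ± 0.16, Pole2 at 0.81 ± 0.17 and the clamp loader subunit Rfc1 at 0.73 ± 0.17 passed as deposited, with adjusted p-values of 0.00045, 0.00204, 0.00285 and 0.00439, and did not after scaling, where they were 0.33, 0.02, 0.19 and 0.36.

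The partners that the translesion enzymes act with most directly did not pass against control as deposited. After scaling, Pcna alone of those named here passed, at 40 weeks. Pcna differed by 0.31 ± 0.12 at 40 weeks (limma adjusted p = 0.0594) and by -0.40 after scaling (adjusted p = 0.0346). The RAD6 genes Ube2a and Ube2b differed by -0.16 ± 0.15 and 0.30 ± 0.16, and Pold2 and Pold3, whose products serve both polymerase delta and polymerase zeta, by 0.02 ± 0.14 and 0.23 ± 0.18, with adjusted p-values of 0.157 or more. At 4 weeks 0 of 55 genes passed with a median difference of 0.03, Ube2b stood at -0.37 ± 0.16 (adjusted p = 0.197) and Pold2 at 0.37 ± 0.14 (adjusted p = 0.143). Among 17418 named genes 362 rose and 632 fell in that comparison.

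Between the alcohol groups 18 of 55 genes were higher at 40 weeks and 5 lower, with a median of 0.23, and 5 and 15 with a median of -0.16 after scaling. Over all 17418 named genes 15.9% were higher and 24% lower as deposited, with a median of -0.11, and 2993 were higher and 3404 lower after scaling, with a median of -0.06. Atad5 was higher by 0.94 ± 0.15 (limma adjusted p = 0.000529) as deposited, and by 0.40 after scaling, where it did not pass (adjusted p = 0.0591). Ube2b was higher by 0.66 ± 0.16 (adjusted p = 0.00624) and by 0.64 after scaling. Pole at 0.96, Brca1 at 0.99, Pold1 at 0.70, Polq at 1.23 and Pole2 at 0.63 were higher as deposited, with adjusted p-values of 0.00217 to 0.0113, and stood at 0.19, -0.05, -0.05, 0.45 and 0.12 after scaling. Polb, the base excision repair polymerase, was lower, at -0.72 ± 0.19 (adjusted p = 0.0105) and -0.38 after scaling.

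**Figure D5:**
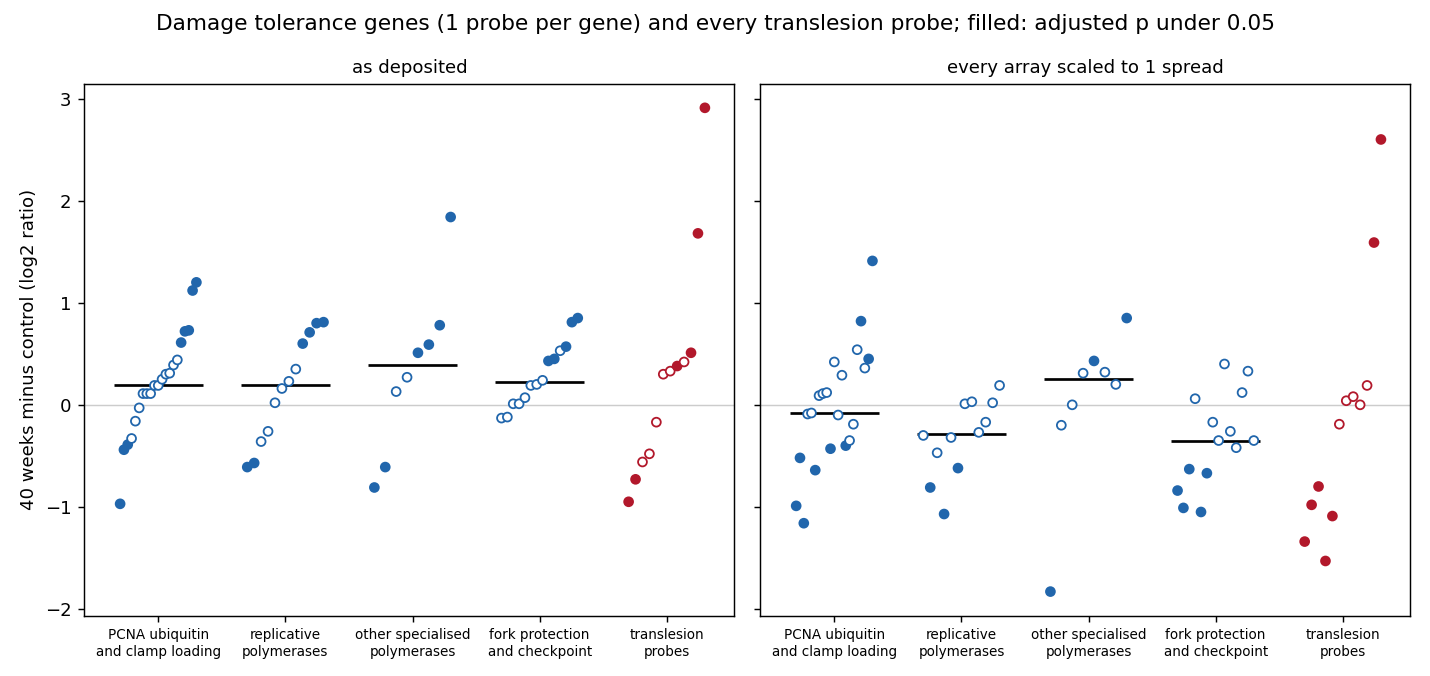
Difference between 40 weeks of alcohol and control (y axis, log2 ratio) for the 55 genes of the 4 lists and the 12 translesion probes, as deposited (left) and with every array scaled to 1 spread (right). Points are genes or probes, ordered by the deposited difference; black lines are list medians. Rev1 stays at 2.60 and 1.59 after scaling, while the medians of the PCNA, replicative and fork lists are below 0 there.

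For the probe of each gene with the strongest Cy5 signal, the gene outside these lists with the most similar pattern over the 12 samples was found by Pearson correlation of log2 ratios. Rev1 was nearest to Rsf1, which encodes a chromatin remodelling subunit, with a correlation of 0.995 over all samples and 0.94 within groups, although Rsf1 differed by 0.75 at 40 weeks where Rev1 differed by 1.68. Polh was nearest to Ddhd1 (0.962, within groups 0.96), Polk to Ttll3 (0.967, within groups 0.94) and Rev3l to A230107N01Rik (0.948, within groups 0.71). Poli was nearest to Mapkbp1 (0.942, within groups 0.83), Mad2l2 to Fbl (0.944, within groups 0.89) and Rad18 to Cldn19 (0.925, within groups 0.90). These are the highest of all genes compared and all values come from the same arrays, so they describe likeness alone. The 2 Rev1 probes themselves correlated at 0.13 within groups, so within a group they did not rank the arrays alike.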

How the data were processed

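Log2 ratios of Cy5 over Cy3 were taken as deposited by the authors for 12 samples; their scale was found by setting them against the scanner files of 8 arrays, where a background-subtracted log2 ratio minus a smooth curve matched within 0.05 for 99.76% to 99.89% of probes. How the 40-week columns were made is not given in the sources used here. Scanner intensity values and other flags of 0 or 1 are from Agilent Feature Extraction (10.7.3.1 per the file headers, 9.1 per the submitters' processing notes). Groups and replicate numbers come from the sample titles. The labels do not say whether replicates were separate animals; p-values then reflect only how these samples vary, possibly for technical reasons, and the number of arrays limits precision.

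Probes were retained where the scanner flagged Cy5 as well above background for 3 or more of the 4 arrays in the 4-week or control group, which left 30455. Limma 3.58.1 (lmFit, eBayes; R 4.3.3) was fitted to all 12 samples in 3 groups, and a probe was called at a Benjamini-Hochberg adjusted p under 0.05 over all kept probes. Scaling divided each array by its own standard deviation and multiplied it by the mean of all. The scanner fits used normexp (offset 50) with loess, and each channel alone with quantile normalisation. The fit was checked on simulated data. Of 41174 probes, 26918 were named through an accession, 5082 through a symbol and 826 through a synonym, 1431 kept the file's name and 6917 had none.

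The members and lists were chosen with earlier results of these data known. All member probes are named, then up to 8 list genes per comparison by lowest adjusted p, with Pcna, Ube2a, Ube2b, Pold2 and Pold3, and 1 nearest pattern per gene. List genes beyond these are named where they passed on both scales at 40 weeks against control. Alternatives covered filters, zeros, scaling, array weights, the replicate block, left-out arrays and scanner processing.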

Additional observations from a re-analysis of the deposited data

Results flagged for a closer look

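In 39 groups of 4 arrays, 2 held an array far from the other 3, a number that chance gives at about 1 in 20 groups. The Rev1 3′ probe read 0.42 on 40-week replicate 1, where the other 3 read 0.22 to 0.25; all 4 lay above every other array. The dim Polk probe read -3.46 on control replicate 3, where the other controls read -1.56 to -1.39, at a Cy5 signal of 6.40 above background.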

How the results depend on the processing

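Both Rev1 probes and the middle Polh probe passed at 40 weeks against control and against 4 weeks under every alternative run, with Rev1 between 2.46 and 3.1 (5′) and between 1.47 and 1.87 (3′) against control. The Mad2l2 difference between the alcohol groups turned to -0.05 with every array scaled to 1 spread. At 40 weeks against control, array weights brought 4 more probes past the threshold: Mad2l2 at 0.35 (adjusted p = 0.0254), the 3′ Polh probe at -0.58 (0.0159), the brighter Polk probe at 0.41 (0.024) and the 3′ Rad18 probe at -0.55 (0.0161). The 3′ Polh probe also passed by limma on the 8 samples compared (-0.56, adjusted p = 0.0293). Over all probes, 12857 passed at 40 weeks against control, 10432 to 13768 with 1 array left out and 7059 without 40-week replicates 3 and 4, which leaves 2 arrays. Between the alcohol groups 13094 passed, 10874 to 14051 with 1 array left out, 8593 with 1 probe per gene, which tests fewer probes, and 7152 without 40-week replicates 3 and 4. At 4 weeks against control 1615 passed (42.6% of them higher; 7112 at an unadjusted p under 0.05), and 875 to 2111 with 1 array left out (875 to 1071 without control replicates 1 or 2, 4-week replicates 2 or 3, or 40-week replicates 1, 2 or 3); 558 passed after scaling, 899 with no filter, 4301 without the 3 mixed arrays, and 0 by limma on the 8 samples compared, where 5292 had an unadjusted p under 0.05. On scanner signals 230 passed with loess (23.9% higher), 610 without background correction (27.5% higher), 0 with median centring (3912 unadjusted), 652 on processed signals, 71 with Cy5 alone (83.1% higher) and 2214 with Cy3 alone (66.4% higher); the cause was not tested. The replicate block, where same-numbered samples share only a number (correlations of deviations from -0.41 to 0.42), gave 1059 at 4 weeks, 12716 at 40 weeks against control and 12826 between the alcohol groups.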
